A study of Drosophila melanogaster with 36 samples.

Results

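The miR-959 to miR-964 cluster is a run of 6 miRNA hairpins in the fly genome, dme-miR-959, dme-miR-960, dme-miR-961, dme-miR-962, dme-miR-963 and dme-miR-964. Its members were taken by name from the deposited miRNA tables: every mature arm of these hairpins, 12 of the 673 features listed, each read singly and as a sum. The libraries hold small RNA from whole heads of female w1118 flies, a white-eyed laboratory strain, at 55 days of age (old) and at 5 days (young). At each age heads were sampled every 4 h from zeitgeber time 0 to 20 (ZT0 to ZT20, hours on the entrainment clock) with 3 replicates a time point, giving 18 old and 18 young libraries in 12 groups. Each library was made from 400 pooled heads, so a fall can come from fewer cells that hold a miRNA or from less of it per cell, and these cannot be told apart.

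Clustered hairpins of this kind are cut from a shared primary transcript by Drosha and Dicer, and 1 or both arms of each are loaded onto an Argonaute protein to repress mRNAs with matching sites. In adult fly heads the cluster is known for a daily rhythm set by the time of feeding, with expression in the fat body, the tissue that stores energy and answers infection. Members have also been tied in flies to control of Toll signalling, a pathway of innate immunity. These are facts from earlier work and carry no result of the present data.

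The 6 hairpins lie on the plus strand of chromosome arm 2L, from 5640940 to 5642201 in BDGP6 coordinates, a span of 1262 nt. All lie inside DIP-theta, an immunoglobulin-domain gene of the family that guides synaptic partner choice, which runs on the minus strand from 5626291 to 5658560, so every hairpin is antisense to that gene and intronic to it. The hairpins of miR-959 (5640940 to 5641037), miR-960 (5641063 to 5641155), miR-961 (5641191 to 5641279) and miR-962 (5641298 to 5641389) stand in the intron between exons 4 and 5 of DIP-theta, with gaps of 18 to 35 nt between them. After a gap of 600 nt come miR-963 (5641990 to 5642078) and miR-964 (5642102 to 5642201), both in the intron between exons 3 and 4 and 23 nt apart.

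The libraries held 16201304 to 23635821 miRNA counts each in old heads and 19782193 to 30441728 in young heads. Levels are given in CPM, counts on a per-million scale, after scaling by the trimmed mean of M-values (TMM), and 1 CPM stood for 11.3 to 29.4 counts in a library. Head marker miRNAs were present throughout: the arms of the eye miRNA miR-210 summed to 17506 to 32418 CPM in old and 24242 to 39471 CPM in young heads, those of the muscle miRNA miR-1 to 385 to 777 CPM in old and 292 to 3094 CPM in young heads, and those of the neuronal miR-124 to 462 to 686 CPM in old and 297 to 625 CPM in young heads. Of the 26 arms listed for testis-expressed clusters, 3 were at 0 in all old libraries and 1 in all young libraries, and their sum was 13.3 to 22.2 CPM in old and 10.6 to 16.4 CPM in young heads. In 3 libraries the 6 arms of ovary miRNAs stood out (old ZT0 replicate 1, young ZT4 replicate 3 and young ZT8 replicate 3, up to 660 CPM in old and 902 CPM in young heads, against at most 55.5 and 56.7 CPM in the other old and young libraries). In 2 more, old ZT0 replicate 3 and young ZT0 replicate 1, miR-184-3p took 37.1% and 45.3% of the miRNA counts (at most 18.6% elsewhere), and the TMM factors were 0.718 and 0.573. The cluster's counts in these 5 libraries were 37 and 19 in old ZT0 replicates 1 and 3, and 64, 72.5 and 46 in young ZT4 replicate 3, young ZT8 replicate 3 and young ZT0 replicate 1. The part of ovary RNA or of miR-184-3p in any result below was not tested beyond leaving these libraries out.

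The cluster was a rare set of miRNAs in these heads, and it was rarer in old heads. All 12 arms together gave 526.5 counts over the 18 old libraries and 1164.5 over the 18 young libraries. Per library this was 15 to 44 counts in old heads (median 30) and 46 to 78 counts in young heads (median 66). The summed level was 1.31 ± 0.26 CPM in old heads and 2.73 ± 0.50 CPM in young heads (SD, n = 18 each). It ran between 0.793 and 1.73 CPM in old libraries (median 1.33) and between 1.97 and 4.06 CPM in young libraries (median 2.74), so the lowest young library lay above every old one. Among the 363 single features that passed the filter on low counts, 4.41% had every old library below every young library. No arm of the cluster did so singly, so this share is not a like measure for the sum. The log2 ratio of the mean sums, old over young, was -1.06, and the old mean was lower at 6 of 6 time points. Without the 5 libraries named above the sums were 1.30 ± 0.26 CPM in 16 old and 2.62 ± 0.34 CPM in 15 young libraries (SD). Without TMM factors, on CPM of the miRNA total, old libraries reached 2.01 CPM and young libraries began at 1.93 CPM, so that they overlapped. The log2 ratio was then -0.85, the weakest of the alternatives. Scaled to the larger total behind the authors' piRNA RPM values the log2 ratio was -1.66, where the median of all features moved to -0.62.

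The chi-square of the counts about a constant rate, divided by its degrees of freedom, was 1.13 over the old and 1.76 over the young libraries, where 1 would be counting noise alone. Without young ZT0 replicate 1 the young value was 1.37. In the 3 old series (a series being the 6 libraries of 1 age with 1 replicate number) the pooled sum was 1.33, 1.26 and 1.37 CPM, and in the 3 young series it was 2.71, 2.70 and 2.61 CPM. The series of an age differed little from each other and the ages did not overlap.

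**Figure D1:**
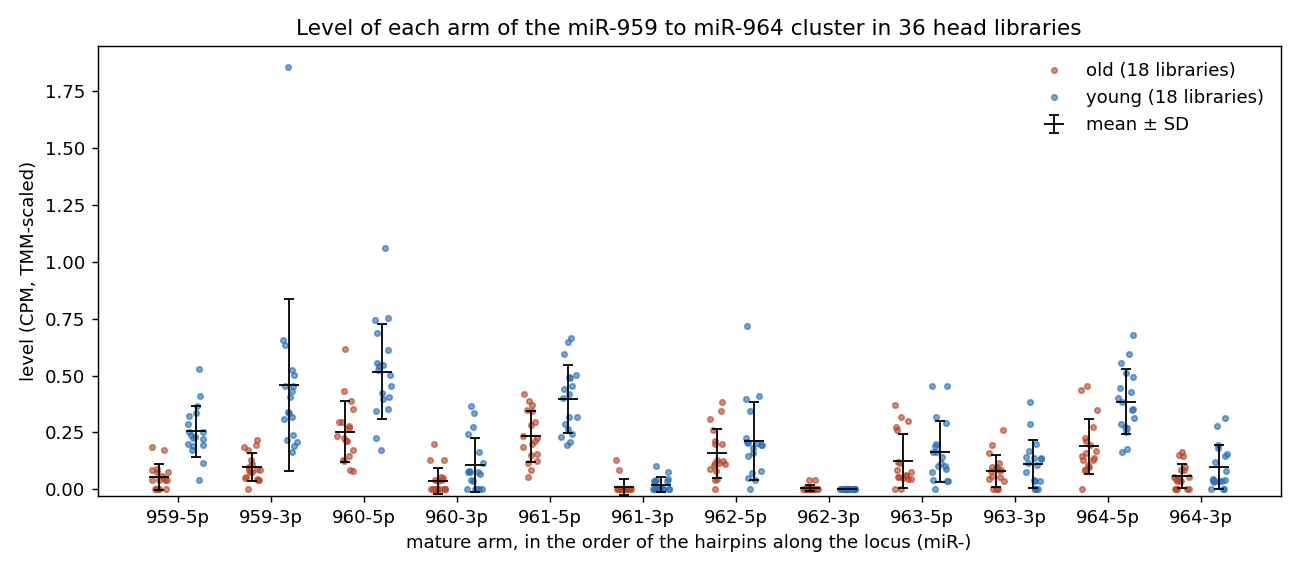
Level of each of the 12 arms (CPM, TMM-scaled) in every library, old left of young, with mean ± SD over 18 libraries (a bar that runs below 0 belongs to an arm at 0 in several libraries). The arms of miR-959 separate most by age, with 1 young library of miR-959-3p at 1.85 CPM, while those of miR-962 and miR-963 overlap widely.

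Arm by arm, the level was under 1 CPM in nearly every library. The arm with the most counts, miR-960-5p, ranked 314 of 673 features by mean level, and the rarest, miR-962-3p, ranked 619. Only 4 arms passed the filter (edgeR's filterByExpr, in effect over 0.443 CPM in at least 3 libraries): miR-959-3p, miR-960-5p, miR-961-5p and miR-964-5p. They passed through young heads, where 6 to 11 libraries lay over that level on TMM-scaled CPM, against at most 1 old library each. The filter itself took CPM without TMM factors, on which these numbers of libraries differ. Ages were compared over all 36 libraries with the time point as a factor by edgeR's quasi-likelihood test, with Benjamini-Hochberg adjustment over all features tested. In that fit 119 of 363 features, 32.8%, were lower in old heads and 104, or 28.7%, were higher.

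Of these 4 arms miR-959-3p fell most. Old libraries held 0 to 0.217 CPM (median 0.0858) and young libraries 0.163 to 1.85 CPM (median 0.373). Of the 18 old libraries 14 lay below the lowest young library, and all 18 lay below the young median. The means were 0.0977 ± 0.0605 CPM in old heads and 0.457 ± 0.378 CPM in young heads (SD, n = 18 each), a log2 difference of -2.12 (SE 0.27) with an adjusted p of 4.2e-08 by edgeR. Only 1 other of the 363 features had a larger fall in that fit. The high young value came from young ZT0 replicate 1, rich in miR-184-3p, and without that library the young level was 0.375 ± 0.150 CPM (SD, 17 libraries). Without all 5 libraries named above the log2 difference was -2.08, and with library totals alone it was -1.88. On log2(RPM + 1), where the pseudocount outweighs levels this low, it was -0.33 by limma.

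The other 3 arms that passed the filter fell by about 1 log2 unit or less. For miR-960-5p old libraries held 0.0793 to 0.617 CPM (median 0.230) and young libraries 0.175 to 1.06 CPM (median 0.513). The ages overlapped, with 17 of 18 old libraries below the young median, and the log2 difference was -1.01 (SE 0.22, edgeR adjusted p = 0.00015). For miR-961-5p old libraries held 0.0529 to 0.421 CPM (median 0.219) and young libraries 0.193 to 0.667 CPM (median 0.411). Again 17 of 18 old libraries were below the young median, and the log2 difference was -0.80 (SE 0.21, edgeR adjusted p = 0.0013). For miR-964-5p old libraries held 0 to 0.452 CPM (median 0.153) and young libraries 0.162 to 0.678 CPM (median 0.368). Here 10 old libraries lay below the lowest young library, and the log2 difference was -1.03 (SE 0.21, edgeR adjusted p = 7.8e-05). Each of the 4 arms had a lower old mean at 6 of 6 time points. Without the 5 libraries that stood apart the differences of these 3 arms were -1.06, -0.90 and -0.97 in the order given. With library totals alone they were -0.83, -0.61 and -0.84, where the median of all features was 0.19. Scaled to the RPM total they were -1.61, -1.41 and -1.63, where that median was -0.62. All 4 arms were also called lower in the fit without a filter, at -2.06 for miR-959-3p, -0.95 for miR-960-5p, -0.75 for miR-961-5p and -0.98 for miR-964-5p (edgeR adjusted p = 3.6e-08, 0.00044, 0.0041 and 0.00022).

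The remaining 8 arms were fitted without a filter, over 636 features, of which 120, or 18.9%, were called lower in old heads. In that fit miR-959-5p, the second arm of the first hairpin, fell by 2.02 on the log2 scale (SE 0.34, edgeR adjusted p = 7.3e-06). It had 22 counts in old libraries, 6 of them at 0, and 106 counts in young libraries, none at 0. Its level was 0 to 0.186 CPM in old heads (median 0.0429) and 0.0408 to 0.529 CPM in young heads (median 0.235), and all 18 old libraries were below the young median. The lesser arm miR-960-3p had 15 counts in old and 48 in young heads. It did not pass the threshold, at a log2 difference of -1.23 (SE 0.54, edgeR adjusted p = 0.068), though it did so when any 1 of 7 libraries was left out, with the lowest value, -1.64 (adjusted p = 0.012), without old ZT4 replicate 1.

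For miR-962-5p (64 counts in old, 94 in young heads) the log2 difference without a filter was -0.37 (SE 0.35, edgeR adjusted p = 0.43). This arm was uneven among young libraries, with 15 counts in young ZT8 replicate 3 and 11 in young ZT4 replicate 3, both rich in ovary miRNAs, and without the 3 ovary-rich libraries the difference was 0.033 and changed its sign. For miR-963-5p (53 old, 72 young counts) it was -0.29 (SE 0.39, edgeR adjusted p = 0.59), and for miR-963-3p (34 old, 49 young counts) -0.34 (SE 0.46, edgeR adjusted p = 0.60). For miR-964-3p (23.5 old, 45 young counts) it was -0.70 (SE 0.43, edgeR adjusted p = 0.20). These 4 arms did not pass the threshold, which at these counts does not show that they were equal. The passenger arms miR-961-3p, with 5 old and 10 young counts, and miR-962-3p, with 2 old counts and none in young heads, were too rare to compare. A count of 0 in young heads allows a level of up to 0.00688 CPM for miR-962-3p (3 counts over the 18 libraries).

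With both arms of a hairpin summed, the age difference was largest in miR-959 and smallest in miR-962 and miR-963. The ratio of the pooled levels, old over young, was 0.235 for miR-959 (exact 95% interval 0.176 to 0.312, counting error only), from 61 old and 283.5 young counts. It was 0.469 (0.373 to 0.586) for miR-960, 0.568 (0.439 to 0.729) for miR-961 and 0.521 (0.412 to 0.670) for miR-964. For miR-962 it was 0.768 (0.552 to 1.06) and for miR-963 0.787 (0.590 to 1.04), and these intervals held 1. The interval of miR-959 did not reach that of any other hairpin, but it is too narrow for the spread between young libraries. In young heads the chi-square of miR-959 per degree of freedom was 4.41, and 1.43 without young ZT0 replicate 1. For miR-962 and miR-963 it was 2.87 and 2.80 in young heads. The 5 hairpins after miR-959, summed, gave a ratio of 0.578 (0.517 to 0.649), and without miR-959 the sum was 1.16 ± 0.23 CPM in old and 2.02 ± 0.35 CPM in young heads (SD, n = 18 each). On the near side of the 600 nt gap, miR-959 to miR-962 gave 0.445 (0.391 to 0.506). With TMM factors every old library here too lay below every young one, as for 4.41% of single features. On miRNA totals alone the ages overlapped for these 4 hairpins as well. On its far side miR-963 and miR-964 gave 0.618 (0.512 to 0.739), and the ages overlapped. No test was made of differences between hairpins.

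**Figure D2:**
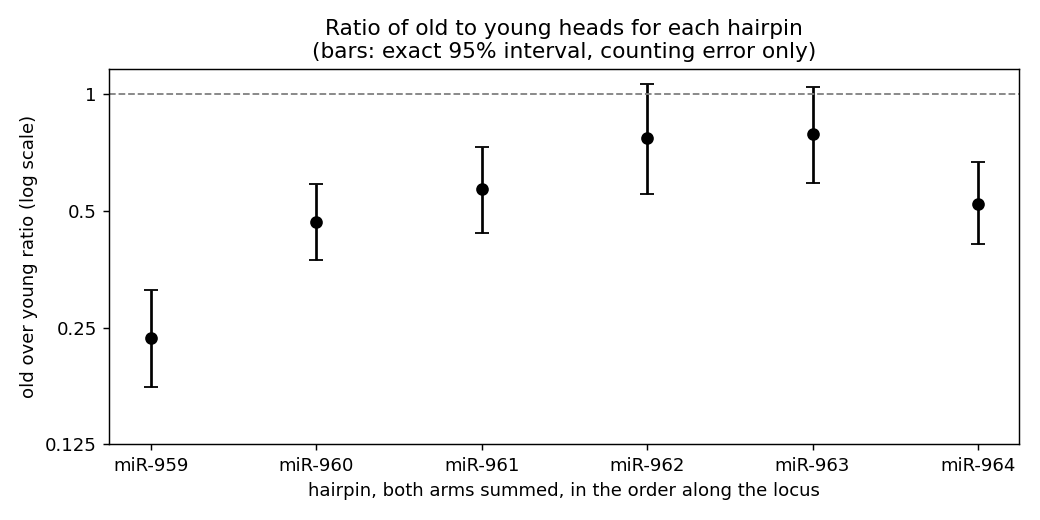
Ratio of the pooled level in old heads to that in young heads for each hairpin, both arms summed, on a log axis, in the order of the hairpins along the locus; bars are exact 95% intervals for counting error. The ratio is lowest for miR-959 (0.235) and closest to 1 for miR-962 (0.768) and miR-963 (0.787).

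The make-up of the cluster shifted accordingly. The hairpin miR-959 gave 11.6% of the cluster's counts in old heads (exact 95% interval 8.99 to 14.6%) and 24.3% in young heads (22.0 to 27.0%). By series its share was 15.3%, 11.5% and 8.15% in old heads, and 31.0%, 20.4% and 22.3% in young heads, without overlap. Young series 1 holds the library rich in miR-184-3p, and without that library the share over young heads was 22.9%. The share of miR-963 was 16.5% in old heads (13.5 to 20.0%) and 10.4% in young heads (8.70 to 12.3%). Its series lay at 13.3% to 22.3% in old and 9.42% to 12.1% in young heads, also without overlap but with a narrow gap. With 3 series an age such a lack of overlap can arise by chance, and no test of shares was made. The share of miR-962 was 12.5% in old heads (9.84 to 15.7%) and 8.07% in young heads (6.57 to 9.79%). Its series overlapped, at 7.91%, 16.3% and 13.6% in old heads and 5.82%, 4.43% and 13.8% in young heads, where the third young series holds both ovary-rich young libraries. Without the 3 ovary-rich libraries miR-962 gave 13.5% in old and 6.61% in young heads. Shares of the other hairpins lay closer: miR-960 gave 21.7% in old and 22.8% in young heads, and miR-964 gave 19.3% in old and 18.3% in young heads. Since shares sum to a whole, a lower share of 1 hairpin raises the others.

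**Figure D3:**
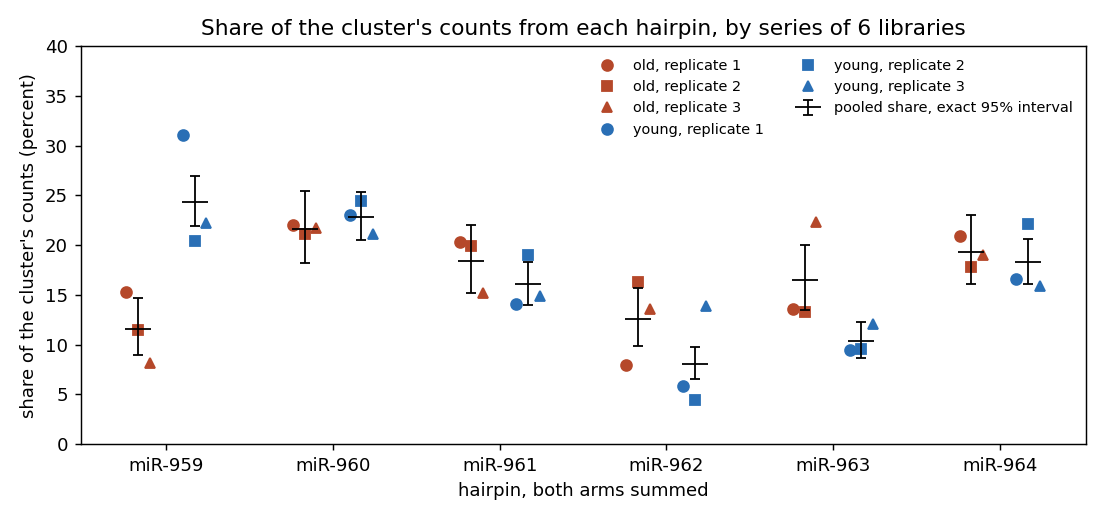
Share of the cluster's counts from each hairpin (percent), for each series of 6 libraries (symbols), old left of young, with the pooled share and its exact 95% interval in black. The old series of miR-959 lie between 8.15% and 15.3%, below the young series at 20.4% to 31.0%.

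The balance of 5p and 3p arms was close at both ages, and for each hairpin the intervals of the ages overlapped. The 3p arm was the more abundant for miR-959, with 63.9% of its counts in old heads (exact 95% interval 50.6 to 75.8%) and 62.6% in young heads (56.8 to 68.3%). For all other hairpins the 5p arm led. It gave 86.8% of miR-960 counts in old heads (79.2 to 92.4%) and 82.0% in young heads (76.8 to 86.4%). For miR-964 it gave 76.8% in old heads (67.0 to 84.3%) and 78.9% in young heads (72.8 to 84.2%), and for miR-961 94.8% in old (88.4 to 98.3%) and 94.7% in young heads (90.4 to 97.4%). The arms of miR-963 were the most even, with 60.9% from 5p in old heads (49.9 to 71.2%) and 59.5% in young heads (50.2 to 68.3%). In miR-962 nearly all counts were 5p, 64 of 66 in old and 94 of 94 in young heads.

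Given the feeding rhythm known for the cluster, the time points were compared within each age. No rhythm test was made of the summed level, so its values by time point neither show nor exclude a daily rhythm. In old heads the summed level was 1.32 ± 0.24 CPM at ZT0, 1.25 ± 0.29 at ZT4, 1.05 ± 0.24 at ZT8, 1.38 ± 0.15 at ZT12, 1.42 ± 0.32 at ZT16 and 1.41 ± 0.31 at ZT20 (SD, n = 3 each). In young heads it was 3.22 ± 0.76 CPM at ZT0, 2.39 ± 0.32 at ZT4, 2.66 ± 0.72 at ZT8, 2.59 ± 0.54 at ZT12, 2.76 ± 0.096 at ZT16 and 2.75 ± 0.27 at ZT20 (SD, n = 3 each). The highest time point stood 1.38 times over the lowest in old heads and 1.27 times in young heads, by pooled counts. At each age the 6 Poisson intervals shared common values. The high mean of young ZT0 rests on replicate 1 at 4.06 CPM, the library rich in miR-184-3p, beside 2.57 and 3.04 CPM in the other replicates.

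Single arms were less even than the sum. The Poisson intervals of the 6 times shared no value for miR-963-5p at either age, for miR-960-3p in young heads and for miR-964-5p in old heads. In old heads miR-963-5p had 6, 7 and 1 counts at ZT0 and 1, 1 and 0 counts at ZT8, a ratio of 6.76 between the pooled levels. In young heads it had 12, 9 and 3 counts at ZT16 and 2, 2 and 1 counts at ZT12, a ratio of 4.67. The extremes thus fell at different times in the ages, and 1 replicate at each high time stood well below its partners. In young heads miR-960-3p had 0, 9 and 6 counts at ZT0, 4, 7 and 7 at ZT8, and 0, 2 and 1 at ZT4, with ZT0 over ZT4 at 6.81 by pooled level. These intervals cover counting error and not the spread between replicates.

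**Figure D4:**
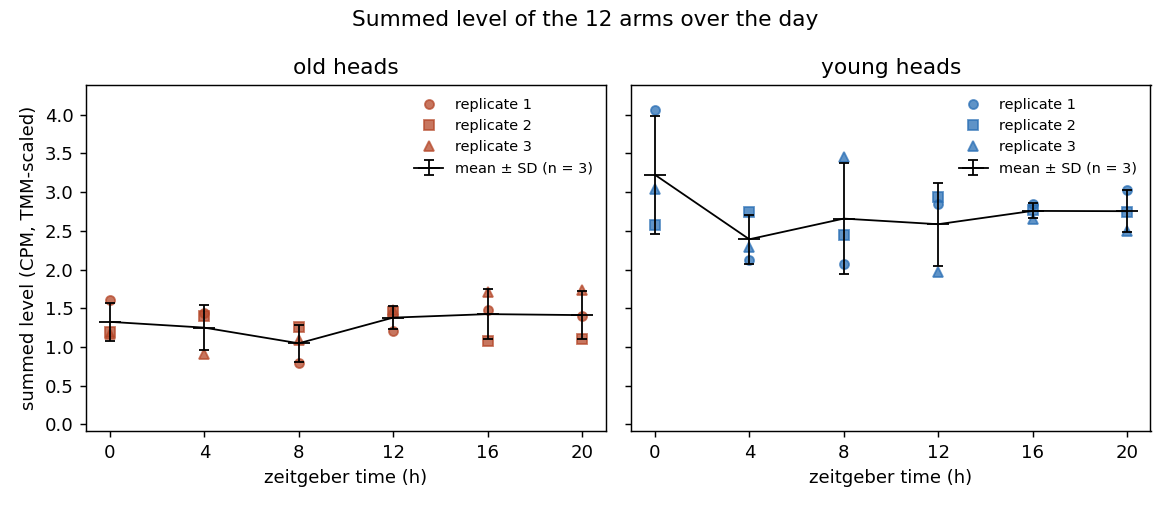
Summed level of the 12 arms (CPM, TMM-scaled) at each zeitgeber time (h), old heads on the left and young heads on the right, with 3 replicates and their mean ± SD. Old means stay between 1.05 and 1.42 CPM and young means between 2.39 and 3.22 CPM, and the replicates of neighbouring times overlap.

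A 24 h cosine and sine pair was fitted within each age across all 363 features. Of these 17, or 4.68%, were rhythmic in young heads by edgeR (adjusted p under 0.05), none of them a cluster arm. Leaving out young ZT8 replicate 3, young ZT4 replicate 3 or young ZT12 replicate 1 gave 5, 10 and 11 such features. In young heads miR-959-3p had a fitted peak-to-trough size of 0.20 log2 units, miR-960-5p 0.44, miR-961-5p 0.23 and miR-964-5p 0.64, with edgeR adjusted p from 0.66 to 0.96. At an unadjusted p under 0.05, the share of all features was 9.92% and no cluster arm was among them. Of the 8 arms left out by the filter none was called rhythmic by edgeR in the fit without one, where 3.3% of 636 features were called in young heads and 0% in old heads. Before adjustment, where 9.12% of features passed in young and 8.96% in old heads, the only such arm under 0.05 was miR-961-3p in old heads, which has 5 counts there. The median peak-to-trough size was 0.27 over all features, and 0.54 over the 102 features averaging under 1 CPM. At the cluster's counts, arms that were not called rhythmic are not shown to be flat.

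In old heads no feature passed the threshold by edgeR (0% of 363; 11.6% at an unadjusted p under 0.05). DESeq2 and limma also called none. The feature with the lowest p of all 363 was miR-964-5p. Old heads held 0.0867, 0.0855 and 0 CPM of it at ZT0, 0.148, 0.128 and 0.159 CPM at ZT4, and 0.212, 0.140 and 0.0993 CPM at ZT8. They held 0.195, 0.348 and 0.452 CPM at ZT12, 0.436, 0.171 and 0.272 CPM at ZT16, and 0.226, 0.105 and 0.130 CPM at ZT20. The ZT0 libraries lay below all others and the ZT12 and ZT16 libraries were highest but for 1 replicate of each, from 4 counts at ZT0 and 25 at ZT12. In young heads the same arm averaged 0.304 ± 0.043 CPM at ZT0, 0.341 ± 0.222 at ZT4, 0.314 ± 0.137 at ZT8, 0.421 ± 0.224 at ZT12, 0.469 ± 0.058 at ZT16 and 0.461 ± 0.088 at ZT20 (SD, n = 3 each).

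**Figure D5:**
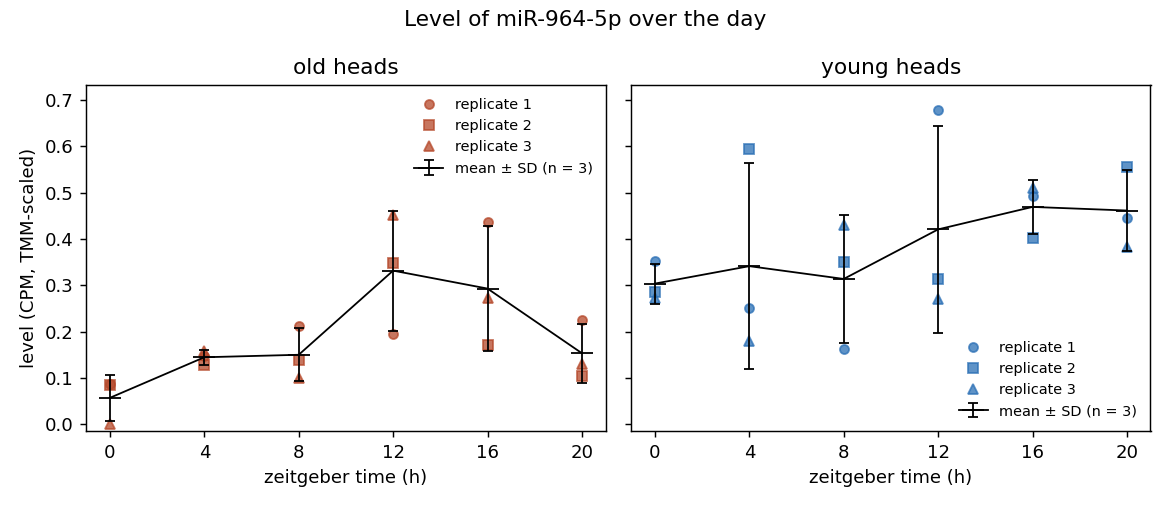
Level of miR-964-5p (CPM, TMM-scaled) at each zeitgeber time (h), old heads on the left and young heads on the right, with 3 replicates and their mean ± SD. Old heads run from 0.0574 CPM at ZT0 to 0.332 CPM at ZT12, and young heads stay between 0.304 and 0.469 CPM.

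The fitted old rhythm of miR-964-5p had a peak-to-trough size of 1.87 log2 units with a peak at ZT13.4. Its p by edgeR was 0.00068 before adjustment and 0.11 after it, so it was not called. Over the alternatives tried its adjusted p was 0.066 to 0.74. The fitted rhythms of old and young heads differed by 1.51 log2 units for this arm, with a p of 0.040 by edgeR and 0.46 after adjustment. Such a difference was called for 0% of all features by edgeR (9.37% before adjustment), for 4 features by DESeq2 and for none by limma. The low ZT0 level includes old ZT0 replicates 1 and 3, both among the libraries that stood apart, and without the 5 the old peak-to-trough size was 1.66 log2 units with an edgeR adjusted p of 0.74. In old heads the other arms that passed the filter had peak-to-trough sizes of 0.73 (miR-959-3p), 0.32 (miR-960-5p) and 0.87 (miR-961-5p) log2 units, with edgeR adjusted p from 0.83 to 0.98.

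A test of age by time point, with no cosine assumed, was also made. It called no feature by edgeR (0% of 363, and 6.61% before adjustment at the same threshold), while DESeq2 called 7 and limma none. The 4 cluster arms had edgeR adjusted p-values near 1 and the lowest unadjusted p was 0.23, for miR-964-5p.

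Within an age no joint rise and fall of the arms was seen from library to library. After the mean of each age was taken off, Pearson's r of log2 CPM between pairs of the 4 arms over the 36 libraries ran from -0.052 to 0.24. Each library holds few counts of each arm, so counting noise could hide a shared movement. The 5 features outside the cluster whose 12 group means were most like the summed cluster were miR-1004-5p (r = 0.98), miR-927-3p (0.98), the feature rr398966-1b-3p-miR (0.97), miR-955-5p (0.97) and miR-2c-5p (0.97). Within an age their r with the cluster over the 36 libraries was 0.20, 0.23, 0.066, 0.28 and 0.021, against -0.44 to 0.44 over all features outside the cluster. The first, miR-1004-5p, stood at 58.5 ± 4.33 CPM in old and 91.5 ± 8.19 CPM in young heads (SD, n = 18 each). The rarest, miR-955-5p, stood at 0.0895 ± 0.0796 CPM in old and 1.27 ± 0.39 CPM in young heads, with the log2 difference -3.72 by edgeR.

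Lists of other miRNAs tied to the same functions are set here beside all features, of which 28.7% were higher and 32.8% lower in old heads. Of 14 arms of miRNAs linked to feeding, fat body and metabolism, 4 were higher and 3 lower in old heads, with a median log2 difference of 0.078 against -0.0079 over all 363 features. The insulin-linked fat-body miRNA miR-8-3p stood at 0.12 and the fat-metabolism miRNA miR-14-3p at -0.15, neither past the threshold. Both calls depend on the scaling: miR-8-3p was called higher with RLE factors (0.15) and with library totals (0.31), and scaled to the total behind the authors' piRNA RPM values miR-8-3p (-0.50) and miR-14-3p (-0.79) were called lower. The other arm of the first, miR-8-5p, was called lower at -0.25 (edgeR adjusted p = 0.019), though not with library totals (-0.056). The lipid regulator miR-33-5p rose by 0.45 and miR-277-3p, which controls amino acid breakdown, fell by 0.53 on the log2 scale (edgeR adjusted p = 4.1e-06 and 7.3e-11). The other arm miR-33-3p rose by 0.87 (edgeR adjusted p = 0.0022). Under the scaling to the RPM total, which moves the median of all features to -0.62, miR-33-5p was at -0.17 and miR-33-3p at 0.25, neither called. Of 25 arms on the clock and rest-activity list, 8 were higher and 10 lower (median -0.044), among them bantam-3p at -0.32, let-7-5p at -0.22, miR-276a-3p at -0.55 and miR-276b-3p at -0.56 (edgeR adjusted p = 0.00037, 0.015, 9.0e-14 and 7.9e-14). With library totals alone the calls of bantam-3p (-0.14) and let-7-5p (-0.014) ended. The other arms of 3 of these hairpins were higher, let-7-3p at 0.76 and both miR-276a-5p and miR-276b-5p at 0.68 (edgeR adjusted p = 2.0e-08 and 1.8e-06), though scaled to the RPM total they were at 0.13 and 0.049 and not called. The arms of miR-276a and miR-276b are near copies, and their 5p rows are identical, so their values may share reads.

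Of 17 arms on the Toll and immune list 3 were higher and 4 lower (median 0.11). It shares miR-8 and let-7 with the lists above. Its member miR-958-3p stood at -0.44 (SE 0.98) and miR-317-3p at 0.13 (SE 0.13), neither past the threshold. With library totals miR-317-3p was called higher (0.29), and scaled to the RPM total it was called lower (-0.51). Of 11 arms of low-level clusters expressed in testis, mostly at or below about 1 CPM as the cluster is, 4 were higher and 1 lower (median 0.27), with the 2 genome copies of miR-983-5p listed separately at identical values. The lower arm was miR-974-5p at -0.82 (edgeR adjusted p = 0.0048), while miR-972-3p (-0.39) and miR-973-3p (0.29) did not pass. Scaled to the RPM total miR-972-3p was called lower and miR-973-3p was at -0.32, still not called. In young heads 1 of 14, 2 of 25, 4 of 17 and 0 of 11 arms of these 4 lists, in the order given, were called rhythmic, beside 4.68% of all features, and none in old heads. The 4 Toll-list arms were both arms of miR-958, miR-311-3p and miR-312-3p. Over all features the young calls numbered 4 without the ovary-rich libraries and 0 without young series 3, against 17 with all libraries.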

How the data were processed

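The authors deposited miRNA and piRNA-cluster tables of expected counts (estimated counts, not all whole) and of RPM, 24 tables for 36 libraries. How the authors made these expected counts is not given in the sources used here beyond the name Bowtie in the submitters' processing notes, which give it no role. The notes name the builds BDGP6 and dm6 and no version, and multi-mapping and strand handling are not given in the sources used here. The deposited RPM of a miRNA is its count over the library's miRNA total. The piRNA RPM rest on a larger total, used as an alternative scaling. Counts were rounded and fitted with edgeR 4.0.16 (filterByExpr with a minimum count of 10, TMM factors, quasi-likelihood test, R 4.3.3). DESeq2 1.42.0 and limma 3.58.1 were alternatives, the latter on log2(RPM + 1) and log2(RPM + 0.1). Scripts were tested on simulated data. Hairpins and introns come from the Ensembl annotation of BDGP6. Intervals (95%, exact Poisson, binomial or conditional) and the limit for a count of 0 cover counting error only, since reads without molecular identifiers are not independent molecules.

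All arms of the cluster are named, and seeds shared with other miRNAs were not analysed here. Features like the cluster are the 5 with the highest r over group means, and lists name up to 4 hairpins in listed order. Members and lists were chosen with earlier results of these data known. The labels do not say that replicates were separate cohorts, so p-values measure the spread between these samples, which may be technical. With few counts of each arm in a library, single-arm levels are coarse.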

Additional observations from a re-analysis of the deposited data

How the results depend on the processing

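The 4 arms that passed the filter stayed lower in old heads and past the threshold under every alternative that gave a value. Nearly all of these alternatives kept the features of the main filter, which the 4 arms passed through young heads, so they do not test that choice. Of the arms left out by the filter, only miR-959-5p was called lower in the fit without one. A filter at 10 CPM left no cluster arm. With the replicate block the log2 differences were -2.11 (miR-959-3p), -1.01 (miR-960-5p), -0.79 (miR-961-5p) and -1.02 (miR-964-5p), with 109 features higher and 122 lower in old heads, and the block changed no call of an arm. In the main fit same-numbered old and young libraries were not paired. Their deviations from the group means correlated at -0.34 to 0.43 (median 0.037), over 0.1 in 7 of 18 pairs. For libraries of the same age and number across times the median was 0.098. Whether same-numbered libraries shared their handling was not tested. With a correlation within series the log2 differences of the 4 arms lay between -1.73 and -0.75 (limma-voom). On log2(RPM + 1) they shrank to -0.33, -0.22, -0.14 and -0.18. No rhythm of the 4 arms that passed the filter was called under any alternative. The arms left out by the filter were examined for a rhythm only in the fit without one, where none was called. Without a filter miR-962-5p was at 0.033 without the 3 ovary-rich libraries and at 0.038 without the 5 that stood apart. Without a filter and scaled to the RPM total, miR-960-3p, miR-962-5p, miR-963-5p and miR-964-3p passed at -1.86, -1.03, -0.95 and -1.32. This scaling moves the median of the features that passed the filter to -0.62, and its median without a filter was not taken. The summed log2 ratio was -1.66 under that scaling, -0.85 with library totals alone, and -1.09 to -1.02 as each library was left out.

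Counts over all features moved more. Scaling to the RPM total gave 28 higher and 251 lower in old heads. The 10 CPM filter gave 61 and 56. Library totals alone gave 145 higher and 72 lower (median of all features 0.19). The limma fits gave 69 and 70 lower. Rhythmic features in young heads numbered 4 with the 10 CPM filter, 1 in each limma fit and 4 without the ovary-rich or all 5 libraries. They numbered 5 to 21 as each library was left out. After the data were seen, each series was also left out: 9 remained without young series 1 and 0 without young series 3, when 2 were called in old heads. Rhythm differences were called for 1 feature with RLE factors, library totals or the RPM total, 4 by DESeq2, 1 without young series 2 or old series 3, and 0 to 9 leaving out 1 library (9 without young ZT8 replicate 2). Age differences by time were called for 7 features by DESeq2, 1 without young series 2, and 0 to 5 leaving out 1 library (5 without young ZT8 replicate 2 or old ZT0 replicate 2). The cause of these moves was not tested.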
